A study of Mus musculus with 6 samples.

Results

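The genes described here are 39 genes of rod and cone phototransduction, chosen as a named list and matched by symbol to the deposited table of 55421 genes. The list holds 12 rod genes, 12 cone genes and 15 genes that rods and cones share or that serve photoreceptors in general, and all 39 were found. RNA was measured by stranded RNA sequencing of polyadenylated transcripts in whole retinas of 2-month-old mice. The 3 control retinas, from animals YR612, YR613 and YR615, carried the *Yapfl/fl* genotype, in which both copies of *Yap* are floxed. The 3 *Yap* cKO retinas, from animals YR711, YR713 and YR714, carried *Yapfl/fl* together with the *RaxCreERT2* allele. Both groups received 4-hydroxytamoxifen (4OH-T) at P10 and P14, so the induction itself was common to all 6 animals. Per the study's account of this line, the Cre acts in Müller glia and in the non-pigmented epithelium of the ciliary body, so rods and cones were not its target.

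Rods serve dim light and far outnumber cones in the mouse retina, and cones serve daylight and colour. In both, an opsin excited by light activates transducin, transducin activates a phosphodiesterase that destroys cyclic GMP (cGMP), and the fall of cGMP closes a cation channel in the outer segment. Arrestins, a kinase, a regulator of G protein signalling and calcium-sensing proteins end the response, and guanylate cyclases restore cGMP. Most of these steps use one gene in rods and a related gene in cones, while others use the same gene in both. Müller glia, in which *Yap* was deleted here, surround the photoreceptors and supply them with metabolites.

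Between 24261799 and 35067068 fragments per retina were assigned to genes, and 16575 genes passed the filter on low counts, including the 39 phototransduction genes. The lowest count of any of the 39 in any retina was 273, and the highest was 502477. Together they took between 6.86 and 7.82% of all counts in a retina. The deleted gene was lower in each *Yap* cKO retina, with *Yap1* at 9.48, 9.52 and 9.83 TPM in the controls against 3.99, 3.76 and 3.94 TPM in the cKO group. TPM is a level per exonic length, computed from the counts and scaled to the same total in every retina. Since the tissue was whole retina, fewer cells of a type and less RNA per cell cannot be told apart. The given cone marker *Arr3* and the rod factor *Nrl* were detected in every retina at no less than 137 and 1517 TPM, respectively.

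None of the 39 genes met the criteria for differential expression, which ask for an adjusted p of at most 0.05 from edgeR's quasi-likelihood test, at least a 1.5-fold difference and, in 1 group, no less than 5 TPM on average. Over all genes tested, 132 met them (0.796%). With the adjusted p alone, the count was also 0 of 39, against 1.49% of all genes. At an unadjusted p under 0.05 there were 8 of the 39 genes, of which 6 were higher in *Yap* cKO retinas (*Arr3*, *Cnga3*, *Cngb3*, *Thrb*, *Gucy2e* and *Gucy2f*) and 2 were lower (*Gnb3* and *Pdc*), a share close to the 21.4% of all genes. DESeq2's Wald test, limma-voom and edgeR's likelihood ratio test also called 0 of 39 by the full criteria, against 1.59%, 0.851% and 1.76% of all genes. By adjusted p alone, however, DESeq2 passed 1 gene, *Arr3*, against 5.38% of all genes. Without a filter on low counts, 4 genes passed the adjusted p alone (*Gucy2e*, *Gucy2f*, *Rgs9* and *Pdc*), against 6.19% of all genes. In that setting the standard error (SE) fell from 0.26 to 0.10 for *Rgs9*, from 0.20 to 0.10 for *Gucy2f* and from 0.14 to 0.10 for *Pdc*. The spread of single genes thus counted for less there, and the groups of these genes overlapped in TPM.

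The precision of these estimates was high for most of the genes. For 35 of 39 the 95% interval of the fold change lay within 1.5-fold in both directions, against 63.9% of all genes tested. The 4 others were *Cnga3*, whose upper limit of 0.59 on the log2 scale lay just past it, *Gucy2f*, *Rgs9* and *Pdc*. For the 12 rod genes the intervals reached no lower than 0.782-fold and no higher than 1.22-fold, both limits belonging to *Nr2e3*. Among the cone genes the lowest limit was 0.731-fold, for *Gnb3*. Over the rod genes the median log2 fold change was -0.06, with 10 of 12 below 0. Cone genes had a median of 0.03, with 7 of 12 above 0. The shared genes had a median of -0.01, with 7 of 15 above 0, and the median over all genes tested was 0.00. Signs this close to 0 depend on how the libraries are scaled. Over all genes, the ratio of mean TPM stood 0.06 higher on the log2 scale than the fitted change, so that 24 of the 39 genes had a higher mean TPM in *Yap* cKO retinas while 16 had a fitted change above 0. By mean TPM, 6 of 12 rod genes, 8 of 12 cone genes and 10 of 15 shared genes stood higher in the cKO group. With upper quartile scaling the cone median was -0.02 and 13 of 39 genes were above 0, and without control YR613 the cone median was -0.03.

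**Figure D1:**
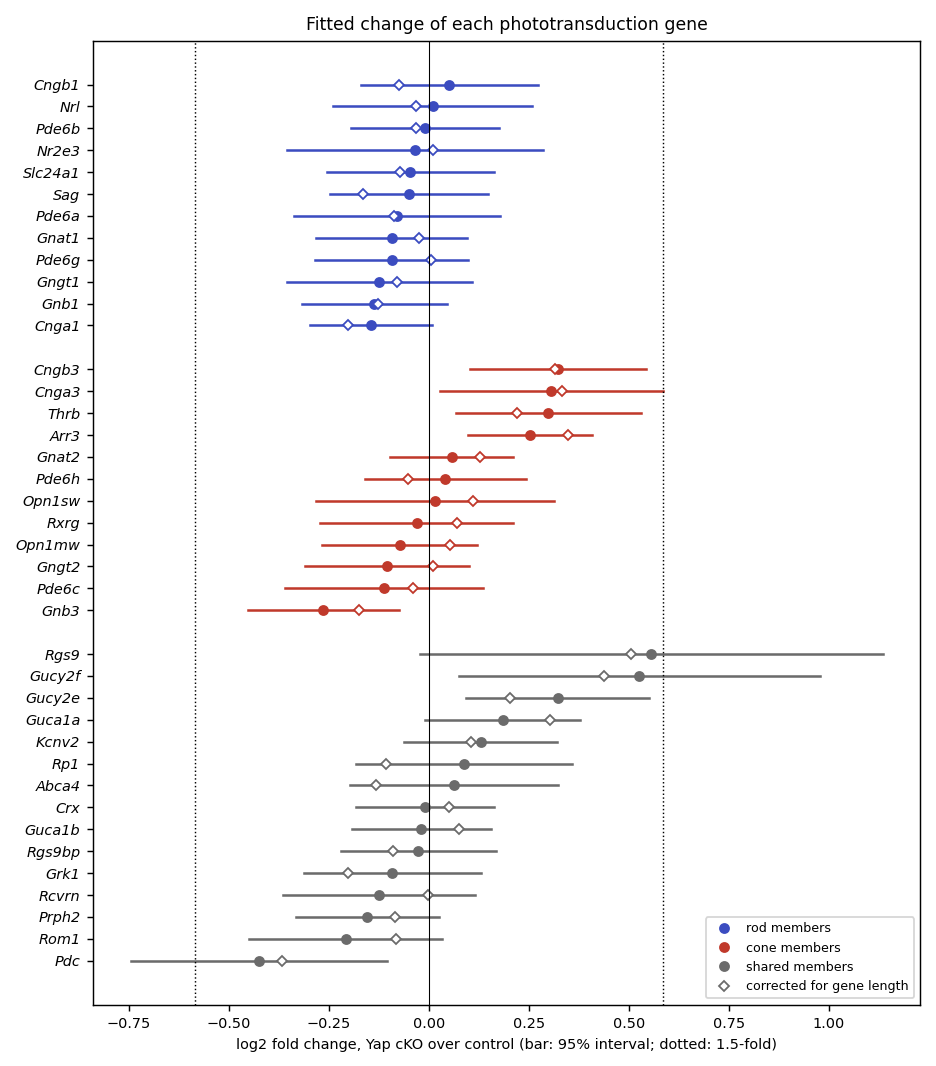
Fitted log2 fold change of each gene, *Yap* cKO over control (filled points), with its 95% interval (bars), for rod, cone and shared genes. Open diamonds give the estimate after correction for gene length, and dotted lines mark 1.5-fold. The rod intervals stay between the dotted lines, and *Rgs9*, *Gucy2f*, *Pdc* and, at its upper limit, *Cnga3* cross them.

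The groups did not overlap in TPM for 10 of the 39 genes, against 24.3% of all genes tested. Of these, 7 were higher in *Yap* cKO retinas (*Arr3*, *Gnat2*, *Cnga3*, *Cngb3*, *Guca1a*, *Gucy2e* and *Kcnv2*), against 15.2% of all genes, and 3 were lower (*Cnga1*, *Gnb3* and *Prph2*), against 9.04%. On counts scaled by TMM, which is the scale of the test, 7 genes did not overlap, against 24.6% of all genes. On that scale 4 were higher (*Arr3*, *Cngb3*, *Thrb* and *Gucy2e*; background 12.3%) and the same 3 were lower (background 12.4%).

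Photoreceptor genes are known for promoters that bind CRX, a homeodomain factor that is itself in the list, and the promoters of 4 of the genes are shown because they carry the contrasts described below, the rod and cone arrestins and the pair of photoreceptor guanylate cyclases. The RefSeq table (GRCm38.p6) held a window for 27 of the 39 genes, of which 5 lay over 1000 bases from the 5′ end of the gene in the count table. The CRX motif TAATCC was sought on both strands in the 250 bases before the start site. It was found in 11 of the 27 windows (40.7%), namely in 4 of 9 rod, 2 of 8 cone and 5 of 10 shared genes, against 5.42% of the 11868 tested genes with a window. The half-site TGCTGAC of the rod factor NRL was found in 2 of 27 (7.41%), *Opn1sw* and *Pde6b*, against 3.02%. A match is a description of letters and not a shown binding site. In the sequences below, read 5′ to 3′ on the strand of the gene, capitals mark TAATCC or its reverse complement. They belong to *Sag* (chr1:87803430-87803679, plus strand), *Arr3* (chrX:100605247-100605496, plus strand), *Gucy2e* (chr11:69237023-69237272, minus strand) and *Gucy2f* (chrX:142196937-142197186, minus strand).
Sag: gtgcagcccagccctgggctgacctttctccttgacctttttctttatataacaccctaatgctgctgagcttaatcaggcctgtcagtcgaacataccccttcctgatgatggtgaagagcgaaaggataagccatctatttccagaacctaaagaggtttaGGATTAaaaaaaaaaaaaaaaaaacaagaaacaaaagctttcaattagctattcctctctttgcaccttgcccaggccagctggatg
Arr3: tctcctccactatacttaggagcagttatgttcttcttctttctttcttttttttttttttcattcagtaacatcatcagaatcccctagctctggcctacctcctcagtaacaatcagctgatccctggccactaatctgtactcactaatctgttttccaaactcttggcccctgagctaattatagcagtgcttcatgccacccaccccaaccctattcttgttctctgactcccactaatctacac
Gucy2e: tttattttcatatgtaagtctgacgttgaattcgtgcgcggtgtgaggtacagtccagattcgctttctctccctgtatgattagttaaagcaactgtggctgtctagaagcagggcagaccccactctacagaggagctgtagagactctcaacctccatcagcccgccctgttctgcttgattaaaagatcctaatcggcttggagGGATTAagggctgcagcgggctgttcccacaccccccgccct
Gucy2f: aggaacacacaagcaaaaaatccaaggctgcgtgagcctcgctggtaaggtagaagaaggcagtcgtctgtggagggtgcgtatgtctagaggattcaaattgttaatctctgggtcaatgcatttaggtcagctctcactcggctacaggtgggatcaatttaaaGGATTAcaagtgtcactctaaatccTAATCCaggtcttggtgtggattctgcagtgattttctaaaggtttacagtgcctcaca
The *Sag* window held the motif from 87 to 82 bases before the start, *Gucy2e* from 42 to 37 and *Gucy2f* at 84 to 79 and at 59 to 54, whereas the *Arr3* window held no TAATCC. Among the genes with the motif, fitted changes ran from -0.14 for *Cnga1* to 0.53 for *Gucy2f*.

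The cone opsins, which capture light, were similar in both groups. *Opn1sw*, the short-wavelength opsin, had 834, 761 and 840 TPM in the controls YR612, YR613 and YR615, in this order, against 1061, 721 and 786 TPM in YR711, YR713 and YR714. The *Yap* cKO retinas lay on both sides of the controls, with YR711 the highest of the 6, and the log2 fold change was 0.02 (SE 0.13, adjusted p = 0.954). *Opn1mw*, the middle-wavelength opsin, had 434, 429 and 450 TPM against 393, 463 and 443 TPM, in the same order of animals, which is kept below. Its groups overlapped as well (log2 fold change -0.07, adjusted p = 0.642). Without YR711, the *Opn1sw* estimate was -0.16.

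Transducin joins an alpha, a beta and a gamma subunit, and its rod genes overlapped between the groups. *Gnat1*, the rod alpha subunit and the most abundant of the 39 transcripts, had 19619, 19146 and 17660 TPM in the controls against 18429, 19063 and 17631 TPM in the cKO group (log2 fold change -0.09, SE 0.08, adjusted p = 0.538). *Gnat2*, the cone alpha subunit, had 308, 310 and 317 TPM against 334, 349 and 329 TPM. All 3 *Yap* cKO retinas were above the controls for *Gnat2* in TPM but not on the TMM scale, and the estimate was small (0.06, 95% interval -0.10 to 0.21, adjusted p = 0.647). *Gnb1*, the rod beta subunit that many other cells also use, had 6509, 7071 and 6309 TPM against 6648, 6394 and 5794 TPM. *Gnb3*, the beta subunit of cones, which ON bipolar cells use as well, had 497, 483 and 492 TPM against 473, 397 and 407 TPM. It had the lowest estimate among the cone genes, with every *Yap* cKO retina below every control, and did not pass the adjustment (log2 fold change -0.26, SE 0.08, adjusted p = 0.135). The rod gamma subunit *Gngt1* had 1816, 1617 and 1986 TPM against 1632, 1707 and 1839 TPM. The cone gamma subunit *Gngt2* had 211, 188 and 207 TPM against 189, 192 and 208 TPM. Both gamma subunits overlapped, with adjusted p of 0.497 and 0.523.

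The cGMP phosphodiesterase of rods joins the catalytic subunits *Pde6a* and *Pde6b* with the inhibitory subunit *Pde6g*, and cones use *Pde6c* and *Pde6h*. All 5 overlapped between the groups, with log2 fold changes from -0.11 for *Pde6c* to 0.04 for *Pde6h* and adjusted p of at least 0.540. *Pde6a* had 2315, 2790 and 2063 TPM in the controls against 2505, 2509 and 2045 TPM in the cKO group. *Pde6b* had 2186, 2217 and 1993 TPM against 2116, 2334 and 2164 TPM. The lowest retina of each group was YR615 or YR714 for *Pde6a*, and YR615 or YR711 for *Pde6b*. The cone subunit *Pde6c* had 172, 200 and 156 TPM against 195, 162 and 152 TPM. *Pde6g* had 4741, 4296 and 4562 TPM against 4298, 4415 and 4567 TPM, and *Pde6h* had 110, 106 and 123 TPM against 116, 119 and 128 TPM. The level of *Pde6h* per length rests on a listed exonic length of 7846 bases, which is the longest among the cone genes.

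The rod alpha subunit of the cGMP-gated channel had a lower estimate in *Yap* cKO retinas and the other subunits higher ones, none past the adjustment. *Cnga1*, the rod alpha subunit, had 721, 736 and 730 TPM in the controls against 689, 690 and 682 TPM in the cKO group. All *Yap* cKO retinas were below all controls, in the gene with the narrowest range of the 39 (1.08-fold from lowest to highest). Its estimate, the lowest among the rod genes, was -0.14 (95% interval -0.30 to 0.01, adjusted p = 0.254). *Cnga3*, the cone alpha subunit, had 19.9, 17.7 and 17.4 TPM against 22.8, 27.6 and 20.5 TPM. *Cngb3*, the cone beta subunit, had 19.8, 24.7 and 22.5 TPM against 27.5, 32.3 and 27.3 TPM. For both cone subunits every *Yap* cKO retina stood above every control in TPM, with log2 fold changes of 0.31 (SE 0.12, adjusted p = 0.201) and 0.32 (SE 0.10, adjusted p = 0.124), the latter the highest among the cone genes. Neither passed the adjustment. *Cngb1*, the rod beta subunit, had 484, 472 and 426 TPM against 447, 547 and 495 TPM. This was the highest estimate among the rod genes (0.05, adjusted p = 0.786), and the groups overlapped. The rod exchanger *Slc24a1*, which removes calcium from the outer segment, ranged from 1257 to 1583 TPM in control retinas and from 1298 to 1476 TPM in *Yap* cKO retinas.

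Among the genes that end the response, cone arrestin stood out for its small spread. *Arr3* had 137, 141 and 137 TPM in the controls against 173, 169 and 172 TPM in the cKO group. The lowest *Yap* cKO retina was above the highest control by more than the whole range within either group. The log2 fold change was 0.25 (SE 0.07, 95% interval 0.10 to 0.41), which is 1.19-fold, and the adjusted p was 0.102. Over the 19 alternatives the estimate stayed between 0.21 and 0.35 and the adjusted p between 0.0189 and 0.332, passing in 2 of them, DESeq2 and the correction for gene length. The rod arrestin *Sag* had 2672, 2502 and 2537 TPM against 2460, 2567 and 2728 TPM, with overlapping groups (log2 fold change -0.05, adjusted p = 0.762).

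*Rgs9*, which speeds the GTPase of transducin and so sets how fast the response ends, had the highest estimate and the widest spread of the 39 genes. It had 147, 280 and 126 TPM in the controls against 321, 307 and 214 TPM in the cKO group. Control YR613 lay above *Yap* cKO YR714 and among the higher retinas, so the groups overlapped, and the log2 fold change was 0.56 (SE 0.26, 95% interval -0.02 to 1.13, adjusted p = 0.246). *Rgs9bp*, the protein that anchors *Rgs9* at the disk membrane, had 463 to 555 TPM in control and 458 to 537 TPM in *Yap* cKO retinas. Its log2 fold change was -0.03, so it did not share the group difference of *Rgs9*. Relative to its mean over all retinas, however, *Rgs9bp* lay on the same side as *Rgs9* in every retina. Its deviation was smaller than that of *Rgs9* in each retina except YR714. Without YR613, *Rgs9* met all criteria with a log2 fold change of 0.96 (adjusted p = 0.0109 by edgeR), as did *Gucy2f*, so that 2 of 39 genes were called against 3.06% of all genes. By adjusted p alone, *Thrb* and *Gucy2e* passed as well in that comparison, a share of 4 in 39 against 8.84% of all genes. Leaving out other retinas gave weaker estimates. The range was 0.35 to 0.96 for *Rgs9* (adjusted p up to 0.558) and 0.39 to 0.82 for *Gucy2f* (adjusted p up to 0.487, both by edgeR). Both lowest estimates came without control YR615, and both genes passed the adjusted p only without YR613.

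*Pdc*, or phosducin, which binds the beta and gamma subunits of transducin, had the lowest estimate of the 39. It had 3872, 4099 and 3403 TPM in the controls against 3730, 2605 and 2504 TPM in the cKO group. YR713 and YR714 were below all controls, whereas YR711 lay among them, and the log2 fold change was -0.42 (SE 0.14, 95% interval -0.75 to -0.10, adjusted p = 0.147). Without YR711 it met all criteria, with a log2 fold change of -0.62 (adjusted p = 0.0255 by edgeR). It was the only one of the 39 in that comparison, against 0.615% of all genes by the full criteria and 0.923% by adjusted p. The *Pdc* estimate ran from -0.62 to -0.34 over the retinas left out, with adjusted p up to 0.453 by edgeR. It passed the adjusted p only without YR711. The opsin kinase *Grk1* and its calcium-dependent inhibitor *Rcvrn* overlapped between the groups. *Grk1* ranged from 802 to 1017 TPM in control and from 776 to 924 TPM in *Yap* cKO retinas, and *Rcvrn* from 4501 to 5025 and from 3994 to 4892 TPM.

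**Figure D2:**
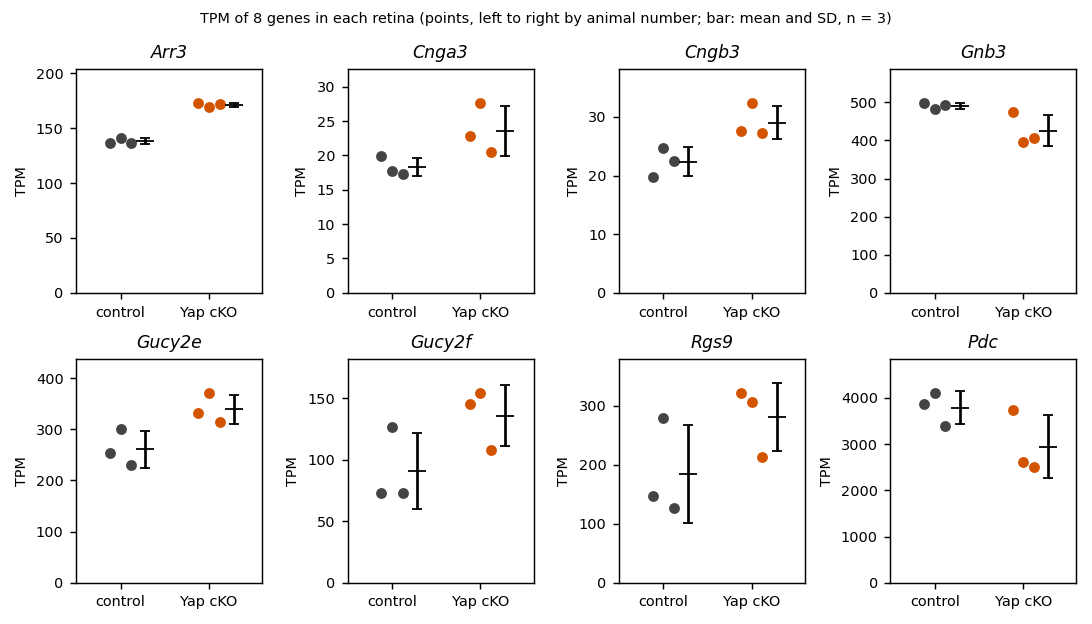
TPM of 8 genes in each retina, on axes that start at 0, with points from left to right in the order of the animal numbers and the mean and SD of the 3 retinas of each group beside them. *Arr3* differs by more than its spread, while the middle control point (YR613) of *Gucy2f* and *Rgs9* lies at the level of the *Yap* cKO retinas and the first *Yap* cKO point (YR711) of *Pdc* lies at the level of the controls.

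Of the 4 genes that restore cGMP, 3 had higher estimates in *Yap* cKO retinas, and none passed the adjustment. *Gucy2e*, the main guanylate cyclase of cones and one of a pair in rods, had 254, 300 and 229 TPM in the controls against 333, 370 and 315 TPM in the cKO group. Every *Yap* cKO retina was above every control (log2 fold change 0.32, SE 0.10, adjusted p = 0.131). *Gucy2f*, the other cyclase, had 72.7, 127 and 72.9 TPM against 145, 154 and 107 TPM. Control YR613 was above *Yap* cKO YR714, and the log2 fold change was 0.53 (SE 0.20, adjusted p = 0.184), or 0.82 without YR613. The calcium-sensing activator *Guca1a* had 857, 834 and 887 TPM against 925, 1079 and 1043 TPM, without overlap (log2 fold change 0.18, SE 0.09, adjusted p = 0.251). Its partner *Guca1b* ranged from 2737 to 2860 TPM in control and from 2763 to 3023 TPM in *Yap* cKO retinas (log2 fold change -0.02). *Guca1a* shares exonic positions with another gene on its strand, and *Nr2e3* does too, so fragments in those positions may have been left uncounted.

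The genes for the outer segment and for photoreceptor identity gave no adjusted p below 0.152. *Prph2* and *Rom1*, the paired tetraspanins of the disk rim, differed little between the groups. *Prph2* had 9857, 9516 and 9574 TPM in the controls against 8739, 9478 and 8880 TPM, and *Rom1* had 9185, 8017 and 8685 TPM against 6956, 7910 and 8474 TPM. Their log2 fold changes were -0.15 and -0.21, and *Prph2* alone was without overlap. The retinoid transporter *Abca4* (0.06) and *Rp1*, a microtubule protein of the outer segment (0.09), overlapped. The factors *Crx*, *Nrl* and *Nr2e3*, which set photoreceptor and rod identity, had log2 fold changes of -0.01, 0.01 and -0.03. Of the cone factors, *Rxrg* stood at -0.03, whereas *Thrb*, the thyroid hormone receptor needed for middle-wavelength opsin, had 35.3, 46.6 and 35.5 TPM in control and 52.0, 51.6 and 46.4 TPM in *Yap* cKO retinas. Control YR613 lay just above *Yap* cKO YR714 for *Thrb* (log2 fold change 0.30, SE 0.10, adjusted p = 0.152). *Kcnv2*, a potassium channel subunit of the inner segment, was without overlap in TPM (413 ± 23.8 against 470 ± 47.9 TPM) at an adjusted p of 0.389.

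A ratio of a rod gene to its cone counterpart within a retina does not depend on how libraries are scaled. In 4 of 9 such ratios, every *Yap* cKO retina was below every control, against 12.3% of all ordered pairs of tested genes with a count in every retina. That share is for this direction only, which was not set beforehand. Since reversing a pair reverses its direction, another 12.3% of ordered pairs had every *Yap* cKO retina above every control. The 9 ratios share genes and libraries, so the count is a description. *Sag* over *Arr3* was 19.5, 17.7 and 18.6 in control and 14.3, 15.2 and 15.9 in *Yap* cKO retinas. *Cnga1* over *Cnga3* averaged 39.9 ± 3.19 (SD, n = 3) in control and 29.5 ± 4.19 in *Yap* cKO retinas, and *Cngb1* over *Cngb3* was 20.8 ± 3.11 and 17.1 ± 0.962. The separation was narrow for *Gnat1* over *Gnat2*, whose lowest control was 55.7 and highest *Yap* cKO retina 55.1. The other 5 ratios overlapped, and *Gnb1* over *Gnb3* had the higher mean in *Yap* cKO retinas (14.8 ± 1.15 against 13.5 ± 0.984). Each of the 4 gave p = 0.1 in the two-sided exact permutation test, the smallest that 3 retinas against 3 allow, and 0.325 after Benjamini-Hochberg adjustment over 13 ratios, which include 4 within a class. Ratios within the rod or the cone genes, such as *Cnga3* over *Cngb3* (0.830 ± 0.151 and 0.810 ± 0.0542), overlapped.

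**Figure D3:**
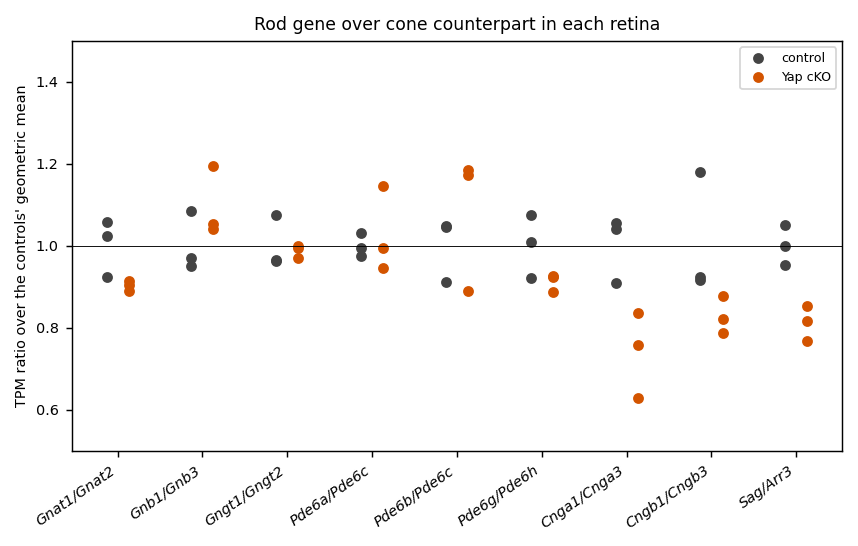
TPM of each rod gene over its cone counterpart in each retina, divided by the geometric mean of the 3 control retinas. The *Yap* cKO retinas are below the controls in the ratios of *Gnat1*, *Cnga1*, *Cngb1* and *Sag* to their counterparts, and overlap with them in the other 5.

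The level of the 39 genes in single retinas followed their exonic length, which ran from 873 to 12311 bases. Over the 39 genes, Spearman's rho between length and the level relative to the mean of the 6 retinas was -0.451 in control YR612 and -0.562 in control YR615, but 0.447 in control YR613. The *Yap* cKO retinas YR711 and YR713 gave 0.382 and 0.372, and YR714 gave -0.113. The genes share libraries and are not independent, so these values are descriptions. Between the groups, log2 fold changes rose with length over the 39 genes (rho = 0.406) and over all genes tested (rho = 0.391). The 13 shortest of the 39 had a median of -0.07, with 9 below 0, and the 13 longest a median of 0.05, with 9 above 0. After each retina was corrected for length, rho over the 39 genes was -0.247, the cone median was 0.09 with 9 of 12 above 0, and the rod median was -0.07 with 10 of 12 below 0.

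The correction moved single genes in both directions. *Arr3* (2355 bases) and *Guca1a* (873 bases), both short, had higher estimates with it, 0.35 and 0.30, and passed the adjusted p (0.0189 and 0.0477, edgeR with corrected offsets) but not the 1.5-fold minimum. These were 2 of 39 genes, against 2.77% of all genes tested. The adjusted p of *Guca1a* ran from 0.0477 to 0.586 over the alternatives. The long genes *Gucy2e* and *Gucy2f* had lower estimates with it, 0.20 and 0.44, while *Rgs9* stood at 0.51, *Pdc* at -0.37 and *Gnb3* at -0.18. The part that length-related differences between libraries have in these estimates was not tested beyond this correction.

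**Figure D4:**
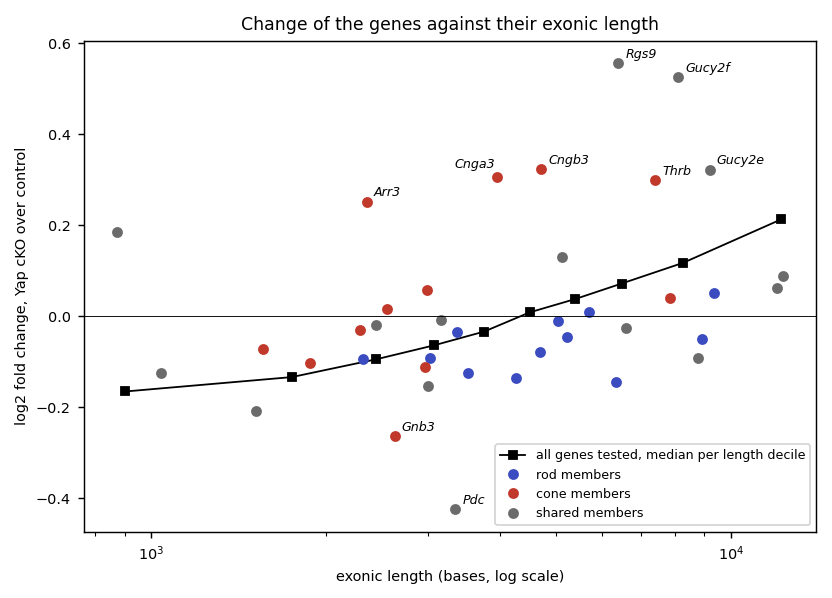
Fitted log2 fold change against exonic length on a log scale, for the 39 genes (circles) and as the median of all tested genes in each of 10 equal bins of length (squares). The medians of all genes climb from -0.17 to 0.21, most rod genes lie on or under that line, and *Rgs9*, *Gucy2f*, *Arr3*, *Cnga3* and *Cngb3* lie above it.

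**Figure D5:**
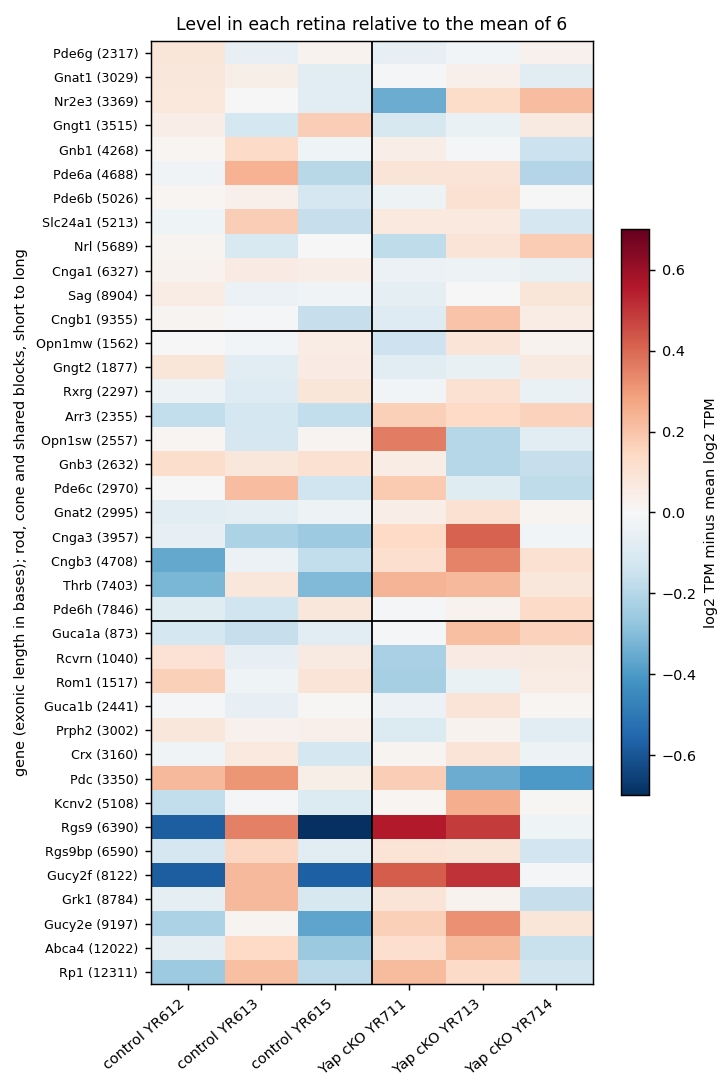
Log2 TPM of each gene minus its mean over the 6 retinas, with rod, cone and shared genes in blocks ordered from short to long and retinas in columns. *Arr3* separates the groups evenly, most long shared genes are low in YR612 and YR615 and high in YR613, YR711 and YR713, and YR711 is high for *Opn1sw* and low for *Nr2e3*.

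Other photoreceptor genes gave no calls either. Of 42 further genes of photoreceptor function, 0 were called (0.796% of all genes), 0 passed the adjusted p (1.49% of all genes) and 12 had an unadjusted p under 0.05 (21.4% of all genes). Their median change was 0.02 (log2). Bipolar cell genes, which serve the cells that receive photoreceptor input, had a median of 0.19, with 1 of 17 past the adjusted p, the receptor *Grm6* (log2 fold change 0.46, adjusted p = 0.0249). At an unadjusted p under 0.05 there were 13 of the 17, of which 9 were higher and 4 lower in the cKO group, with *Gng13* (-0.40), *Rgs11* (-0.33), *Pcp2* (-0.28) and *Cabp5* (-0.25) on the lower side. Müller glia genes, from the cells in which *Yap* was deleted, had a median of -0.20, with 1 of 14 past the adjusted p, the antioxidant enzyme *Prdx6* (-0.42, adjusted p = 0.0477), and 7 at an unadjusted p under 0.05, 1 higher and 6 lower. Clock genes had a median of 0.02, with 1 of 15 past the adjusted p, *Per2* (0.50, adjusted p = 0.0332), and 6 at an unadjusted p under 0.05, 2 higher and 4 lower. *Grm6*, *Prdx6* and *Per2* did not reach 1.5-fold.

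Each list of marker genes of tissue outside the neural retina gave some counts in every library, though not every gene did. Genes of the retinal pigment epithelium, which renews the visual pigment, summed to between 733 and 813 TPM in control retinas. In YR711, YR713 and YR714 of the cKO group they summed to 286, 456 and 798 TPM, with a median change of -0.60 (log2). Past the adjusted p was 1 of 10 genes, *Rrh* (-0.50, adjusted p = 0.0472), against 1.49% of all genes. Of the 10, 8 had estimates below 0, and *Trpm3* (0.30) and *Sulf1* (0.29) lay above it. The defining gene *Rpe65* had 70.5 to 77.5 TPM in control and 14.3, 30.7 and 68.6 TPM in *Yap* cKO retinas. Melanin genes were below every control in sum, at 17.9 to 50.6 TPM against 75.0 to 81.9 TPM. Among them 1 of 7 was called, *Pmel* (-1.89, adjusted p = 0.0347), against 0.796% of all genes. Of 14 lens genes 3 passed the filter, with sums of 5.49 to 25.0 TPM in control and 2.30 to 5.24 TPM in *Yap* cKO retinas over the whole list, in which *Lim2* was at 0 in all 6. The part of these markers' tissue in the values of the 39 genes was not tested.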

How the data were processed

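The labels, the file header and the methods of the study describe the files. The authors aligned reads to GRCm38 with STAR 2.7.3a and counted fragments per gene with featureCounts 1.6.2 (strand setting 2, release 98 of the annotation per the file header). The deposited values are raw counts, with a column for each retina, beside each gene's exonic length. TPM was computed from both. Counts were filtered with filterByExpr, scaled by TMM and tested with edgeR 4.0.16 (R 4.3.3, limma 3.58.1) by the quasi-likelihood test on all 16575 genes (Benjamini-Hochberg adjusted). Criteria for a call, from the study's methods, were adjusted p of 0.05 or less, at least 1.5-fold difference and an average of 5 TPM or more in 1 group. The study, which names edgeR but not its test, reported more genes by these criteria than the 132 called here. With edgeR's likelihood ratio test, 291 genes met them. No covariate was fitted, since no batch or sex is labelled. Levels between genes depend on the listed exonic length, which joins all annotated transcripts. Ratios were compared by exact permutation. DESeq2 1.42.0 and other tests, size factors and filters, a correction for gene length (loess, span 0.3) and leaving out each retina were alternatives, 19 in all. Steps were tested on simulated data. Values in every retina are given for genes past the adjusted p, for rod and cone counterparts and for the largest rise and fall in each list, and for others chosen after their values were seen. From the other lists, genes past the adjusted p are named, with a few more chosen after their values were seen. The members and lists were chosen with earlier results of these data known. Whether each retina is 1 library of 1 animal rests on the animal codes in the labels, and p-values set group differences against the spread between these samples.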

Additional observations from a re-analysis of the deposited data

How the results depend on the processing

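No paired analysis was possible because the labels number no replicates across the groups. By the full criteria, 0 of the 39 genes were called under each of the 13 alternatives that keep all 6 retinas. Over these alternatives, the share of all genes called ran from 0.271% to 1.76%. Since none of the 39 passed an adjusted p of 0.05, a cutoff of 0.01, no fold minimum or no TPM minimum could only return 0. With 1 retina left out, between 0 and 2 were called. They were 2 without YR613 (*Gucy2f* and *Rgs9*, against 3.06% of all genes) and 1 without YR711 (*Pdc*, against 0.615%). By adjusted p alone, 1 gene passed with DESeq2, 4 without a filter on low counts (*Gucy2e*, *Gucy2f*, *Rgs9* and *Pdc*; 6.19% of all genes) and 2 with the correction for gene length, and between 0 and 4 with a retina left out (4 without YR613, 1 without YR711). Without the filter, the standard errors of *Gucy2f*, *Rgs9* and *Pdc* were smaller than in the main fit. Over all genes, the count by the full criteria was 516 without YR613, 448 without YR714 and 38 without YR615, against 132. Without YR714, none of the 39 genes passed the adjusted p, against 5.89% of all genes. The cone median was -0.0187 with upper quartile scaling and 0.09 with the length correction, and ran from -0.0273 (without YR613) to 0.0502 (without YR615) over the retinas left out. The rod and shared medians moved by less than the spread between retinas.

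Single genes that turned sign had main estimates from -0.1036 (*Gngt2*) to 0.0876 (*Rp1*). Under the alternatives some lay farther from 0, such as *Opn1sw* at -0.1626 and at 0.1289. Scaled by library size, *Nrl* was at -0.0044 and *Opn1sw* at -0.0014. With upper quartile scaling, *Nrl*, *Opn1sw* and *Pde6h* were at -0.0369, -0.0314 and -0.006, and with limma-voom *Opn1sw* was at -3e-04. With the length correction, *Pde6g* (0.0043), *Nr2e3* (0.0103), *Opn1mw* (0.053), *Gngt2* (0.0092), *Rxrg* (0.0692), *Crx* (0.0514) and *Guca1b* (0.0749) turned positive, and *Cngb1* (-0.075), *Nrl* (-0.0329), *Pde6h* (-0.0526), *Abca4* (-0.1308) and *Rp1* (-0.1073) negative. Over the retinas left out, the estimates of genes that turned sign ran from -0.1775 to 0.0227 for *Pde6a*, -0.0604 to 0.0308 for *Pde6b*, -0.0189 to 0.1222 for *Cngb1*, -0.1104 to 0.0016 for *Sag*, -0.1229 to 0.0251 for *Slc24a1*, -0.0861 to 0.1079 for *Nrl*, -0.1655 to 0.1192 for *Nr2e3*, -0.1626 to 0.1289 for *Opn1sw*, -0.0223 to 0.1023 for *Pde6h*, -0.0867 to 0.0159 for *Rxrg*, -0.0602 to 0.0178 for *Crx*, -0.1571 to 5e-04 for *Grk1*, -0.0555 to 0.0137 for *Guca1b*, -0.0621 to 0.0364 for *Rgs9bp* and -0.0345 to 0.1454 for *Abca4*. The causes were not tested. Of the estimates for single genes under the alternatives, 606 kept their direction and side of the threshold, 45 turned sign and 12 passed the threshold. These counts leave out the alternatives without a fold change or TPM minimum. Those that change only the adjusted p cutoff are included and repeat the main estimates, so they could not turn sign. With 3 retinas a group, the median standard error over the 39 genes was 0.10 on the log2 scale, which limits what smaller differences could be detected.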
